A study of Rattus norvegicus with 25 samples.

Results

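Complement genes that start the cascade and amplify it at C3 were examined in the gingiva of 25 rats. The 10 genes, C1qa, C1qb, C1qc, C1r, C1s, C2, C3, C4b, Cfb and Cfp, were chosen by symbol from 30547 genes in the table. All 10 were among the 16092 genes kept for testing, which reached 2 CPM (reads scaled to a common library total) in at least 1 library. Complement is a set of secreted proteins that coat microbes and damaged cells. In the classical pathway, C1q binds antibody or a surface and switches on the proteases C1r and C1s, which cut C4 and C2 to form an enzyme that splits C3. In the alternative pathway, factor B (Cfb) joins split C3 in a second such enzyme, and properdin (Cfp) steadies it, so that C3 splitting feeds itself. C3 fragments mark bacteria for uptake by phagocytes, and Porphyromonas gingivalis, a bacterium of diseased gums, is known for proteases that cut complement proteins.

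The rats were wild-type Sprague-Dawley rats in 5 groups of 5, with 1 library per rat and no pooling. Experimental periodontitis (EP) was produced by silk ligature of both upper first molars and smearing of P. gingivalis ATCC 33277 onto the silk, and 3 further groups had EP and then a hydrogel with curcumin (Cur gel), with zinc oxide nanoparticles (ZNP gel) or with both (Cur/ZNP gel). Each gel was injected into the periodontal pockets in 200 μL volumes, once a week for 4 weeks, and sham rats received hydrogel as their control. Whether EP rats received a hydrogel without drug is not stated, so drug and vehicle cannot be told apart in comparisons of gels with EP. For the same reason disease and vehicle cannot be told apart in the comparison of EP with sham. The age is 6 weeks in the sample labels, and the methods give an older one. The combined gel held less of each drug than the single gels did, as the methods give the same total concentration for every gel.

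Reads per library ranged from 50690789 to 81791804, so counting error was small for all 10 genes. Levels are given below as normalized counts, which are reads divided by 1 size factor per library, and differences as log2 fold changes of normalized count + 1. The tissue label was checked against 12 genes of gingival epithelium, all found, whose summed level was 1324 CPM for Sham 4, 4020 for EP 3 and 5089 for EP 4. It was at least 11787 in every other library. The same 3 libraries carried 165751 to 219175 CPM of 6 nasal gland genes, against 1039 or less elsewhere. The sums of 6 salivary gland genes ran from 28.8 CPM in Sham 3 to 119963 in EP 2, and those of 9 autonomic neuron genes reached 1995 in Sham 3. Transcripts of other tissues thus differed between libraries of the same group. Their medians also differed between sham and the other groups. Skeletal muscle genes had a median sum of 2901 CPM in sham and medians of 17041 to 29478 in the other groups. For autonomic neuron genes the median was 379.5 in sham and 2.76 to 3.28 elsewhere. The part of these tissues in the differences from sham given below was not tested. In bulk tissue fewer cells of a type and less RNA per cell cannot be told apart.

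C4b was the 1 member that was higher than in sham both in EP and in all 3 gel groups. In EP it was the 1 member of 10 that passed the test, an adjusted p under 0.05 in limma (Benjamini-Hochberg over 16092 genes), and 0 were lower. In the same comparison 18.8% of all genes passed as higher and 18.8% as lower. In the Cur gel group C4b and C2 were higher and Cfp was lower, beside 18.9% of all genes higher and 19.1% lower. In the ZNP gel group C4b and C2 were higher and 0 members were lower, beside 16.7% and 15.4%. In the Cur/ZNP gel group C4b, C1r and C1s were higher and 0 were lower, beside 20.2% and 19.5%, and DESeq2 also called Cfp lower there (-0.80, adjusted p = 0.0397). These shares of 10 members, 10% to 30% in the upward direction, lay on both sides of the background. The median log2 fold change of the 10 members from sham was 0.45 in EP, and 0.43, 0.88 and 0.64 with curcumin, zinc and both in the gel, while the median over all genes lay between -0.06 and 0.01. Without Sham 3 the medians of the members were 0.24, 0.17, 0.60 and 0.38, and without Sham 4 they were 0.73, 0.75, 1.15 and 0.88. The number of members at an unadjusted p under 0.05 was 2, 3, 7 and 3 of 10. Over all genes it was 7598, 7649, 7038 and 7867 of 16092 in the same order. All 4 comparisons use the same 5 sham libraries, so they are not independent of each other.

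**Figure D1:**
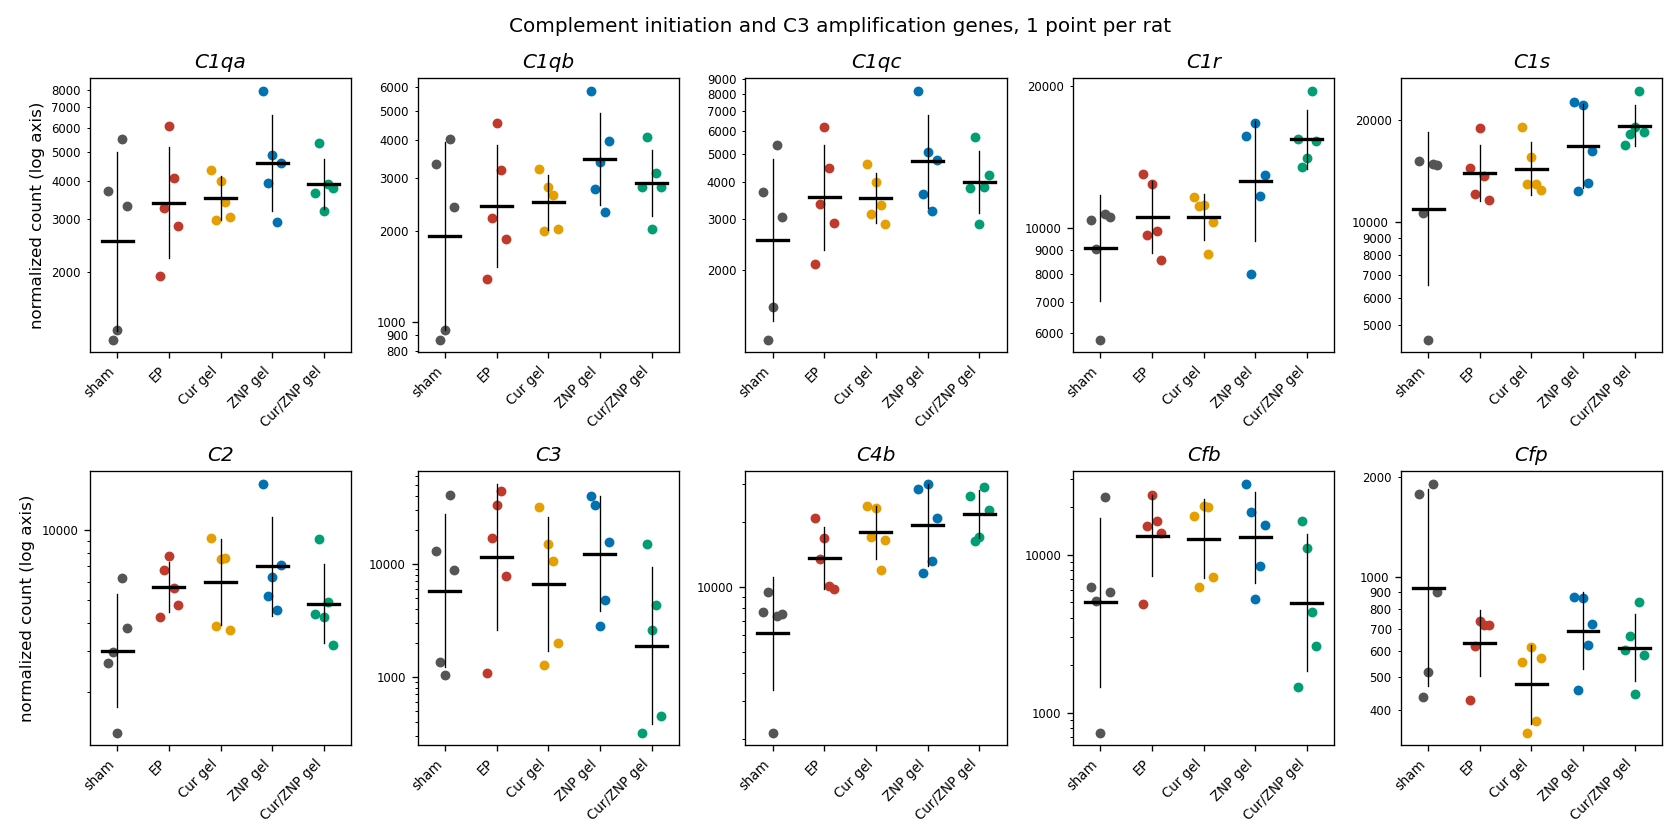
Normalized counts of the 10 complement genes on log axes, 1 point per rat, with the mean of the log2 values (bar) and ±1 SD (line) for each group of 5. C4b sat at or below 9518 in all 5 sham libraries and at or above 9762 in all 20 others, whereas C3 and Cfb spread over more than 1 order of magnitude in the sham and Cur/ZNP gel groups.

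The recognition subunits of C1 were compared first. C1qa, C1qb and C1qc encode the A, B and C chains of C1q, which is made mainly by macrophages and dendritic cells. They lie side by side on chromosome 5 in Rnor_6.0, C1qb at 155246447 to 155252003, C1qc at 155255005 to 155258392 and C1qa at 155261250 to 155264143, all on the minus strand. C1qa had normalized counts of 3714, 1193, 1285, 5510.5 and 3306 in Sham 1 to 5. In EP it had 1943, 3263, 6095, 4099 and 2845. In the gel groups its lowest, median and highest values were 2972, 3401 and 4362 in Cur gel, 2922, 4601 and 7937 in ZNP gel, and 3189, 3779.5 and 5322 in Cur/ZNP gel. Sham 2 and Sham 3 were the lowest of the 25 libraries and every gel group overlapped sham. The log2 fold change of C1qa from sham was 0.42 in EP (SE 0.358, adjusted p = 0.364), 0.47 in Cur gel (adjusted p = 0.306), 0.86 in ZNP gel (adjusted p = 0.069) and 0.63 in Cur/ZNP gel (adjusted p = 0.166). C1qb and C1qc moved alike, with 0.85 and 0.89 in ZNP gel (adjusted p = 0.0918 and 0.0561), the largest of their 4 values. None of the 3 chains passed the limma test in any of the 4 groups. Of the 12 fits 3, all in ZNP gel, had an unadjusted p under 0.05. In ZNP gel 7038 of all 16092 genes did so, and the 3 chains varied together, so they are not separate results. Sham 4 had the highest C1q normalized counts of its group and was rich in nasal gland transcripts. In CPM its C1qa was 44.1, below Sham 1 (65.7) and Sham 5 (66.3). Without Sham 4 the ZNP gel values were 1.14 for C1qa, 1.12 for C1qb and 1.16 for C1qc (adjusted p = 0.0177, 0.0305 and 0.0151). C1qa and C1qc then passed in Cur/ZNP gel as well (0.91 and 0.93, adjusted p = 0.0423 and 0.0367). In ZNP gel C1qa and C1qc also passed without ZNP gel 4 (adjusted p = 0.0497 and 0.0464) and C1qc without Sham 1 (adjusted p = 0.0484), while without Sham 3 the value of C1qa was 0.62 (adjusted p = 0.206).

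C1qa and C1qc kept a near-fixed proportion within each library. Their ratio of normalized counts lay between 0.857 and 1.11 in all 25 libraries, while C1qa itself ranged from 1193 to 7937. No group difference in this ratio passed an exact permutation test (two-sided, 5 against 5, smallest possible p = 0.00794, adjusted p at least 0.898 in all 7 comparisons). Within groups the mean log2 level of the 14 macrophage genes tested followed the C1q chains (r of 0.88 to 0.91 over 25 libraries). The summed level of the 15 macrophage genes found had a median of 475 CPM in sham and 479 in EP. With curcumin, zinc and both the medians were 437, 620 and 586. Of the 14 macrophage genes tested, 3, 3, 5 and 4 were higher than in sham in the same 4 groups and 0 were lower, where 18.8%, 18.9%, 16.7% and 20.2% of all genes were higher. Their part in the C1q values was not tested.

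The proteases of the C1 complex passed the test in the combined gel group, with values near those of the C1q chains, and the difference between them was not tested. C1r encodes the protease that activates itself when C1q binds, and C1s the protease that C1r then activates and that cuts C4 and C2. They are neighbours on chromosome 4, C1r at 157125998 to 157136829 on the plus strand and C1s at 157143592 to 157155609 on the minus strand. C1r had 10398, 9046, 5813, 10718 and 10589 normalized counts in Sham 1 to 5. In the Cur/ZNP gel libraries it had 15458, 13469, 14074, 19520.4 and 15279.8. All 5 combined gel libraries lay above all 5 sham libraries, as was the case for 9.49% of all genes tested. The log2 fold change was 0.76 (SE 0.187, 95% interval 0.37 to 1.15, adjusted p = 0.00327), equal to 1.70-fold. C1r had 8594 to 13023 in EP, 8830 to 11676 in Cur gel and 7998 to 16663 in ZNP gel, each overlapping sham. The corresponding log2 fold changes were 0.22 (adjusted p = 0.371), 0.22 (adjusted p = 0.368) and 0.47 (adjusted p = 0.0581). The call in ZNP gel was close to the threshold, since edgeR and DESeq2 gave adjusted p = 0.0487 and 0.0271, and limma 0.0111 without ZNP gel 2, 0.0485 without Sham 4 and 0.0455 without Sham 5.

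C1s followed C1r. It had 15199.6, 10651, 4505, 14869 and 14729 normalized counts in Sham 1 to 5, and 16912, 18148.5, 19031, 24376 and 18467 in the Cur/ZNP gel libraries, again without overlap. Its log2 fold change was 0.81 (SE 0.262, 95% interval 0.26 to 1.35, adjusted p = 0.0185). It was 0.35 in EP (adjusted p = 0.307), 0.39 in Cur gel (adjusted p = 0.246) and 0.61 in ZNP gel (adjusted p = 0.0785, or 0.0487 without Sham 5). Sham 3 was the lowest library for both proteases. Without it the combined gel value fell to 0.60 for C1r (adjusted p = 0.0126) and to 0.49 for C1s (adjusted p = 0.0546), so the call of C1s was lost. The C1r/C1s ratio was 1.29 in Sham 3 and between 0.613 and 0.914 in the other 24 libraries, and no group difference in it passed (adjusted p at least 0.898, exact permutation test). In each of these genes 1 transcript held over 99% of the normalized count in every library.

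Fibroblast and mast cell markers were also higher in the combined gel group. Summed levels of 11 fibroblast genes had a median of 4844 CPM in sham (1592 to 5715) and of 7859 in Cur/ZNP gel (5332 to 10519), against 3495 with EP alone, 4357 with curcumin and 4734 with zinc. Of these 11 genes 7 were higher than sham in Cur/ZNP gel, beside 20.2% of all genes. In each of the other groups 2 were higher and 1 was lower. In EP, Cur gel and ZNP gel 18.8%, 18.9% and 16.7% of all genes were higher and 18.8%, 19.1% and 15.4% lower. Summed levels of 8 mast cell genes were 15.7 to 48.3 CPM in sham, 32.6 to 142 in EP, and 55.3 to 135 over the 15 gel libraries. Their medians were 29.0 in sham, 83.5 in EP, and 114, 80.3 and 87.4 with curcumin, zinc and both. The part of either cell type in the C1r, C1s and C4b values was not tested.

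C4 and C2 supply the parts of the classical C3-splitting enzyme. C4b, on chromosome 20 at 4302344 to 4316715 (minus strand), encodes the protein that C1s cuts and that then binds the target surface. It had 7698, 9518, 2125, 7342 and 7481 normalized counts in Sham 1 to 5. In EP it had 20772, 13473, 16936, 10105 and 9762. The lowest EP library, EP 5, was just above the highest sham library, Sham 2, so the groups did not overlap, as for 8.07% of all genes in the upward direction. This separation depends on the scaling. In CPM C4b was 97.5 in EP 4, below Sham 1 (136), Sham 2 (177) and Sham 5 (150). The log2 fold change was 1.15 (SE 0.350, 95% interval 0.43 to 1.88, adjusted p = 0.0132), equal to 2.23-fold.

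In the gel groups the C4b libraries likewise lay above sham. The Cur gel libraries had 23631, 16940.3, 23047, 11958 and 16486 normalized counts. The ZNP gel libraries had 28264, 11597, 29935, 13186 and 20870.5. The Cur/ZNP gel libraries had 26441, 16382, 17115, 29093 and 22754. All 15 lay above all 5 sham libraries. The background of genes without overlap was 8.84%, 7.03% and 9.49% in these comparisons. The log2 fold changes from sham were 1.55 (adjusted p = 0.0019), 1.66 (adjusted p = 0.00194) and 1.83 (adjusted p = 0.00054), each with SE 0.350. Sham 3 was far below the other sham libraries for C4b. Without it the 4 values, EP first, were 0.77 (adjusted p = 0.047), 1.17 (adjusted p = 0.00546), 1.28 (adjusted p = 0.0054) and 1.45 (adjusted p = 0.0013), and all 4 still passed. Without Sham 4, EP 3 and EP 4 the EP value was 1.26 (adjusted p = 0.04). Fitted on the 2 groups alone, the EP value of 1.15 did not pass (adjusted p = 0.0619).

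The split of reads between C4 copies is uncertain. The rat has a closely related gene, C4a, on chromosome 20 at 2651599 to 2678141, and a further locus, LOC103689965, whose span of annotation overlaps C4b. C4a had a median of 4176 normalized counts in sham, 5777.5 in EP, and 5495, 9452 and 5699 with curcumin, zinc and both. It passed in ZNP gel (log2 fold change 1.05, adjusted p = 0.0492) and not in EP (0.65, adjusted p = 0.21), Cur gel (0.62, adjusted p = 0.227) or Cur/ZNP gel (0.78, adjusted p = 0.126). LOC103689965 had medians of 3906, 8031, 6924, 12275 and 9444 in the same order of groups. When the 3 loci were summed as 1 gene, the log2 fold changes from sham were 1.10 (adjusted p = 0.0166), 1.32 (adjusted p = 0.00511), 1.56 (adjusted p = 0.00268) and 1.57 (adjusted p = 0.00155). The copies were chosen for this sum after their values were seen.

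The bases before the start sites of C4b and C1r are shown because these 2 genes moved together, and those of C3 because it did not move with them. RefSeq promoter windows in the build GRCr8 were found for 6 of the 10 members, namely C1qa, C1qb, C1r, C3, C4b and Cfp. The 250 bases before each start follow, 5′ to 3′ on the strand of the gene, from chr20:4201729-4201978 (plus strand) for C4b, chr4:159098763-159099012 (plus strand) for C1r and chr9:2201340-2201589 (minus strand) for C3. Capitals mark matches to the motifs described below them.
C4b: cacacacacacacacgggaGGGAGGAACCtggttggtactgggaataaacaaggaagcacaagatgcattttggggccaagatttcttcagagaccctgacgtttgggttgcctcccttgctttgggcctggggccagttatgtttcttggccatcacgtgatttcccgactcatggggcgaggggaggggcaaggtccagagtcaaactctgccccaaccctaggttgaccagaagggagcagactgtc
C1r: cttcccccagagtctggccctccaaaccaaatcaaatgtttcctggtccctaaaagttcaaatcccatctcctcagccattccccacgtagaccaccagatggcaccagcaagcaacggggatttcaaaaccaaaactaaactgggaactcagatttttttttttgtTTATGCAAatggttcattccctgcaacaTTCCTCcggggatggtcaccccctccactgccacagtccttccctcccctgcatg
C3: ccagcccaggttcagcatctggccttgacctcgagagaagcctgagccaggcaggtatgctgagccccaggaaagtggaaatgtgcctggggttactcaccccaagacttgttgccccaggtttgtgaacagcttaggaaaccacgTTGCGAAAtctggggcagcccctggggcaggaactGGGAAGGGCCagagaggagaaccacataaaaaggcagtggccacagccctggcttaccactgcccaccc

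Each window of 300 bases (250 before the start and 50 after it) was searched on both strands for 6 short motifs of factors used in immune cells and in the acute phase. The NF-kB motif (GGGA, any 4 bases, CC) was in the windows of C1qb, C3 and C4b and in 19.3% of 33469 promoters of the same length. In C4b it ran from -231 to -222 and overlapped the PU.1 motif GAGGAA, which C1qb, C1r and Cfp also held (27.6% of all promoters). The C/EBP motif TTGCNNAA was in C1r, from -83 to -76, and in C3, from -104 to -97 (10.6% of all promoters). The GAS motif TTCNNNGAA was in C1qa (8.87%) and the AP-1 motif TGANTCA in Cfp (7.33%), while the ISRE motif (GAAA, any 2 bases, GAAA) was in 0 of the 6 windows (3.92%). C4b and C1r thus shared the letters GAGGAA and no other motif of the 6. The windows of C4a and C4b were identical at 280 of 291 aligned bases (96.2%, with 18 gap bases). A match is a description of letters, and binding was not measured.

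C2 encodes the serine protease of the classical enzyme. It lies on chromosome 20 at 4542340 to 4561152, and some annotated Cfb transcripts run across it on the same strand, so reads of the 2 genes can be shared. C2 had 2670.2, 2976, 1336, 6238 and 3795 normalized counts in Sham 1 to 5, and 4210.5, 6761, 7713, 5639 and 4771 in EP. Cur gel libraries had 9265, 3849.5, 7547, 7563 and 3731, and ZNP gel libraries 15844, 5226, 6265, 4507 and 7093. Sham 4 lay inside the range of every other group, and the other 4 sham libraries were below all 5 EP libraries. Against sham C2 had 0.91 in EP (SE 0.380, adjusted p = 0.0627), 0.98 in Cur gel (adjusted p = 0.0453), 1.21 in ZNP gel (adjusted p = 0.0195) and 0.68 in Cur/ZNP gel (3194 to 9158, adjusted p = 0.159). Without Sham 4 the EP value was 1.17 (adjusted p = 0.0187). The Cur gel call was lost in 10 of 21 alternatives, among them without Sham 1, 2 or 3 or Cur gel 1, 3 or 4, with adjusted p up to 0.153 without Sham 3 (0.69). The ZNP gel call was lost in 3, without Sham 3 (0.91, adjusted p = 0.072), without ZNP gel 1 (0.91, adjusted p = 0.0659) and with the 2 groups alone (adjusted p = 0.0822).

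**Figure D2:**
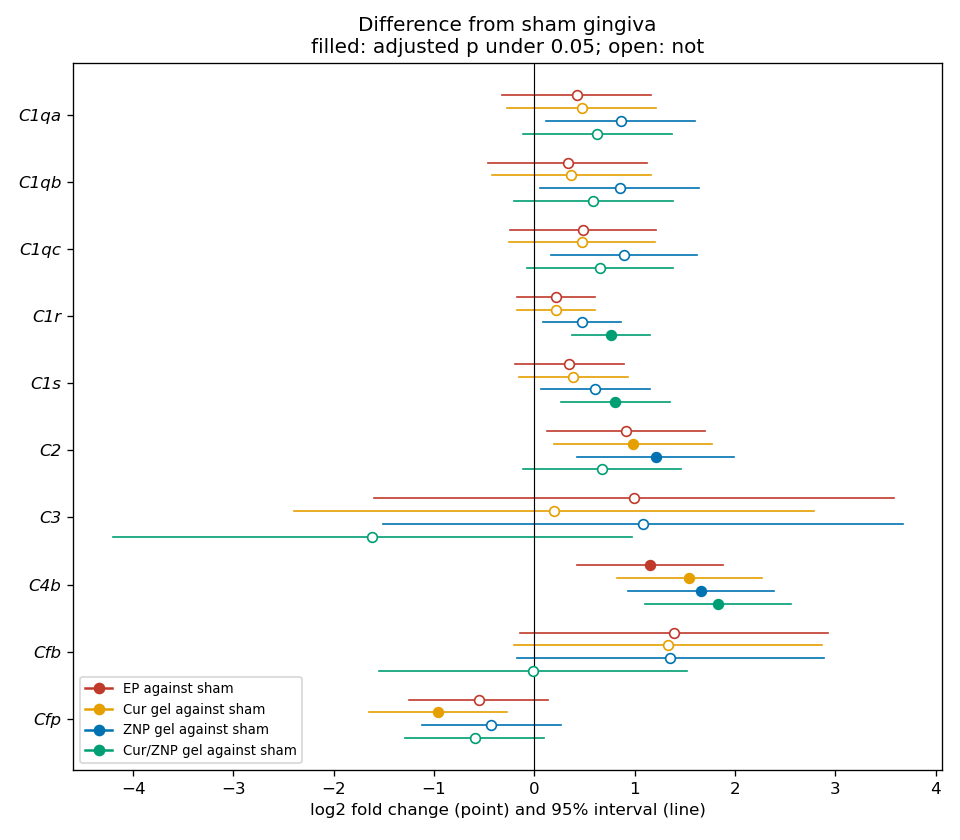
Log2 fold change (points) and 95% interval (lines) of each gene from sham in EP and the 3 gel groups, with filled points for an adjusted p under 0.05. C4b was filled in all 4 groups, C1r and C1s in Cur/ZNP gel, C2 in Cur gel and ZNP gel and Cfp, below 0, in Cur gel, and the intervals of C3 were the widest.

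C3, the protein on which the pathways meet, varied more within groups than between them. The gene lies on chromosome 9 at 9721105 to 9747167 (plus strand). It had 12969, 1360.2, 1032, 40146 and 8844 normalized counts in Sham 1 to 5. In EP it had 1081, 16710.3, 33026, 43861 and 7770.2. Each of these groups spanned a range of about 40-fold, 38.9-fold in sham and 40.6-fold in EP, and they overlapped almost fully. The gel libraries had 1281 to 31681 in Cur gel and 2829 to 39473 in ZNP gel. The Cur/ZNP gel libraries had 319, 14939, 2606, 4271 and 451, of which Cur/ZNP gel 1 and Cur/ZNP gel 5 were the lowest of all 25. The log2 fold change from sham was 0.99 in EP (SE 1.25, adjusted p = 0.552), 0.20 in Cur gel (adjusted p = 0.912), 1.08 in ZNP gel (adjusted p = 0.527) and -1.61 in Cur/ZNP gel (adjusted p = 0.311). The 95% intervals, such as -1.59 to 3.58 in EP, allow large changes in either direction. Without Sham 3 the value was 0.37 in EP, and -0.42, 0.46 and -2.24 with curcumin, zinc and both (adjusted p = 0.852, 0.824, 0.822 and 0.183), so the direction in Cur gel turned. One of the 2 C3 transcripts, with 84.9% of the normalized count over all libraries, was at 0 in 3 libraries, and the other then held 100%.

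Cfb resembled C3. It encodes factor B, the protease of the alternative enzyme, and most of its count (96.1%) came from 1 of 5 transcripts on chromosome 20. Cfb had 6247, 5052, 745, 23237 and 5789.7 normalized counts in Sham 1 to 5, and 4867, 15274, 23814, 16413 and 13743 in EP. Sham 4 was the only sham library above 6247, and EP 1 the only EP library below 13743. In Cur/ZNP gel it had 1457, 16355.5, 11009.8, 4353 and 2645. The log2 fold change from sham was 1.40 in EP (SE 0.740, adjusted p = 0.141), 1.33 in Cur gel (adjusted p = 0.158), 1.36 in ZNP gel (adjusted p = 0.162) and -0.01 in Cur/ZNP gel (adjusted p = 0.991). None passed. Without Sham 4 the first 3 values were 1.95, 1.89 and 1.91 and passed (adjusted p = 0.0375, 0.0444 and 0.0491). Without Sham 3 they were 0.71, 0.65 and 0.67 (adjusted p = 0.443, 0.471 and 0.481), and the Cur/ZNP gel value was -0.70 (adjusted p = 0.424).

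Gland transcripts differed among the libraries with high and low C3 and Cfb. The 6 libraries with the most C3, 31681 or more, were Sham 4, EP 3, EP 4, Cur gel 1, ZNP gel 1 and ZNP gel 2, and 3 of them, Sham 4, EP 3 and EP 4, were the ones rich in nasal gland transcripts. Salivary gland genes summed to 459, 469 and 38.1 CPM in Cur/ZNP gel 1, 4 and 5, in which Cfb was 4353 or less. They summed to 54787 and 83919 CPM in Cur/ZNP gel 2 and 3, in which Cfb was 11009.8 or more. In sham and EP some libraries went the other way. Cfb was 23237 in Sham 4 and 16413 in EP 4, with salivary sums of 904 and 311 CPM. It was 5052 in Sham 2 and 4867 in EP 1, with salivary sums of 37062 and 26000 CPM. Within groups over all 25 libraries the salivary gland mean had r = 0.59 with Cfb. In Cur gel the salivary sums were 51201 to 118352 CPM in all 5 libraries while C3 still ranged from 1281 to 31681. The part of gland tissue in the C3 and Cfb values was not tested.

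Properdin was the 1 member that passed as lower than in sham. Cfp, on the X chromosome at 1311121 to 1316682 (plus strand), encodes the protein that steadies the alternative enzyme and is made by leukocytes. It had 1780.1, 436, 519, 1907 and 901 normalized counts in Sham 1 to 5, and 558, 340.3, 617, 370.5 and 569.9 in the Cur gel libraries. Sham 1, 4 and 5 were above, and Sham 2 and 3 within, the range of Cur gel. In Cur gel its log2 fold change was -0.96 (SE 0.333, 95% interval -1.65 to -0.27, adjusted p = 0.0274). It was -0.55 in EP (428 to 738, adjusted p = 0.195), -0.43 in ZNP gel (457 to 871, adjusted p = 0.335) and -0.60 in Cur/ZNP gel (445 to 843, adjusted p = 0.157). The Cur gel call was lost in 6 of 21 alternatives, among them without Sham 1 (-0.73, adjusted p = 0.0982), without Sham 4 (-0.70, adjusted p = 0.0898) and without Cur gel 2 or Cur gel 4 (-0.84 and -0.87, adjusted p = 0.0745 and 0.0604). Without Sham 2 it passed in EP (-0.83, adjusted p = 0.0395) and in Cur/ZNP gel (-0.87, adjusted p = 0.0299). T cell genes, 7 in the sum, had medians of 73.9 CPM in sham and 53.6 in EP. With curcumin, zinc and both the medians were 43.7, 52.8 and 41.7. Calls of single T cell genes in Cur gel went in both directions. B and plasma cell genes had medians of 485 CPM in sham and 255 in EP, and of 176, 434 and 76.9 in the gels in that order. Within groups Cfp had r of 0.80 with the T cell mean, 0.71 with that of B and plasma cells and 0.68 with that of macrophages. The part of these cell types in the Cfp values was not tested.

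The gels were then compared with EP, the comparison that asks what treatment changed. In limma 0 of the 10 members passed in any of the 3 gels, and the share of all genes that passed was 0% with curcumin, 0.00621% (1 gene) with zinc and 0% with both. At an unadjusted p under 0.05 there were 0, 0 and 2 members, beside 284, 481 and 2054 of all genes. With edgeR 0 members passed in each gel, and 0, 0 and 1 at an unadjusted p under 0.05. With DESeq2 0 passed, and 0, 0 and 3 at an unadjusted p, while over all genes DESeq2 called 12 higher and 71 lower in Cur gel, 5 and 60 in ZNP gel and 85 and 121 in the combined gel. At an unadjusted p under 0.05 DESeq2 had 620, 868 and 2659 of all genes. edgeR called 0 of all genes in each gel (511, 705 and 2297 at an unadjusted p under 0.05).

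Both members with an unadjusted p under 0.05 were in the combined gel. C1r was higher than in EP by 0.54 (SE 0.187, 95% interval 0.16 to 0.93, adjusted p = 0.293), and all 5 combined gel libraries lay above all 5 EP libraries, as for 1.27% of all genes. C3 was lower by 2.61 on the log2 scale, with a fitted value of -2.61 (SE 1.25, 95% interval -5.20 to -0.02, adjusted p = 0.387) and overlapping groups. Cfb had -1.41 (95% interval -2.94 to 0.13, adjusted p = 0.426), C4b 0.68 (-0.05 to 1.40, adjusted p = 0.42) and C1s 0.46 (-0.08 to 1.00, adjusted p = 0.464). In Cur gel C1r differed by -0.00 from EP (95% interval -0.39 to 0.39), C4b by 0.39 (-0.33 to 1.12) and C3 by -0.80 (-3.39 to 1.79). In ZNP gel C4b differed by 0.51 (-0.22 to 1.23), C1qb by 0.52 (-0.28 to 1.31) and C3 by 0.09 (-2.50 to 2.68). These intervals include differences of 2-fold or more for C4b and C3, so they do not show that the gels left these genes as in EP.

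**Figure D3:**
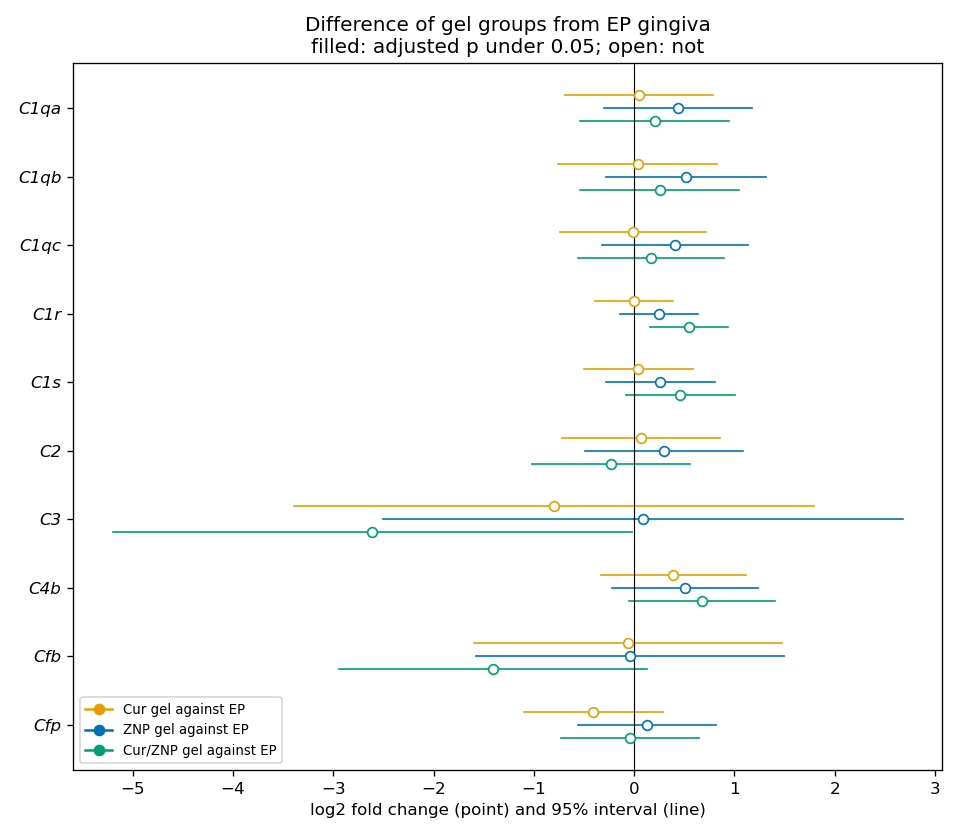
Log2 fold change (points) and 95% interval (lines) of each gene from EP in the 3 gel groups, where open points mark an adjusted p of 0.05 or more. All 30 points are open, and the points of Cur/ZNP gel lie above 0 for C1r, C1s and C4b and below 0 for C3 and Cfb.

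Between gels 0 members passed in any of 3 comparisons, and 0% of all genes passed in limma for Cur/ZNP gel against Cur gel, 0% against ZNP gel and 0% for ZNP gel against Cur gel (1780, 818 and 183 genes at an unadjusted p under 0.05). At an unadjusted p there were 1, 1 and 0 members with limma, 1, 0 and 0 with edgeR and 1, 1 and 0 with DESeq2, and 0 passed with any of them. Over all genes DESeq2 called 10 higher and 6 lower, 21 and 5, and 1 and 11 in the same comparisons. It had 1997, 1086 and 330 genes at an unadjusted p under 0.05. With edgeR 0 of all genes passed in each, and 1601, 867 and 239 had an unadjusted p under 0.05. C1r was higher in Cur/ZNP gel than in Cur gel by 0.54 (95% interval 0.16 to 0.93, adjusted p = 0.304) without overlap, as for 1.50% of all genes. This separation depends on the scaling, since in CPM C1r was 237 in Cur gel 1 and 229 in Cur/ZNP gel 2. C3 had -2.70 against ZNP gel (95% interval -5.28 to -0.11, adjusted p = 0.899) and -1.81 against Cur gel (-4.40 to 0.78, adjusted p = 0.645). Cfb had -1.37 and -1.35 in the same comparisons (adjusted p = 0.899 and 0.532). C4b differed by 0.17 from ZNP gel and by 0.29 from Cur gel, each less than its SE of 0.350. ZNP gel against Cur gel gave values of 0.02 to 0.89 for all 10 members, with 0 at an unadjusted p under 0.05.

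Ratios of related genes within a library do not depend on its scaling, and 4 of them were compared in 7 comparisons each with exact two-sided permutation tests. None of the 28 passed after adjustment. The C3/C4b ratio was furthest from sham in Cur/ZNP gel, where it was 0.0121, 0.147 and 0.912 at its lowest, median and highest, against 0.143, 1.18 and 5.47 in sham. The mean log2 ratio was lower than in sham with a difference of -3.45 (p = 0.0556, adjusted p = 0.815, exact permutation test) and lower than in EP with -3.29 (p = 0.0873, adjusted p = 0.815, exact permutation test). The C2/Cfb ratio, the classical against the alternative protease, was 0.324, 0.347 and 0.865 in EP and 0.384, 1.12 and 2.98 in Cur/ZNP gel, a log2 difference of 1.18 (p = 0.0635, adjusted p = 0.815, exact permutation test). In both cases the spread within Cur/ZNP gel was wide, with an SD of 2.52 for C3/C4b and 1.14 for C2/Cfb on the log2 scale.

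**Figure D4:**
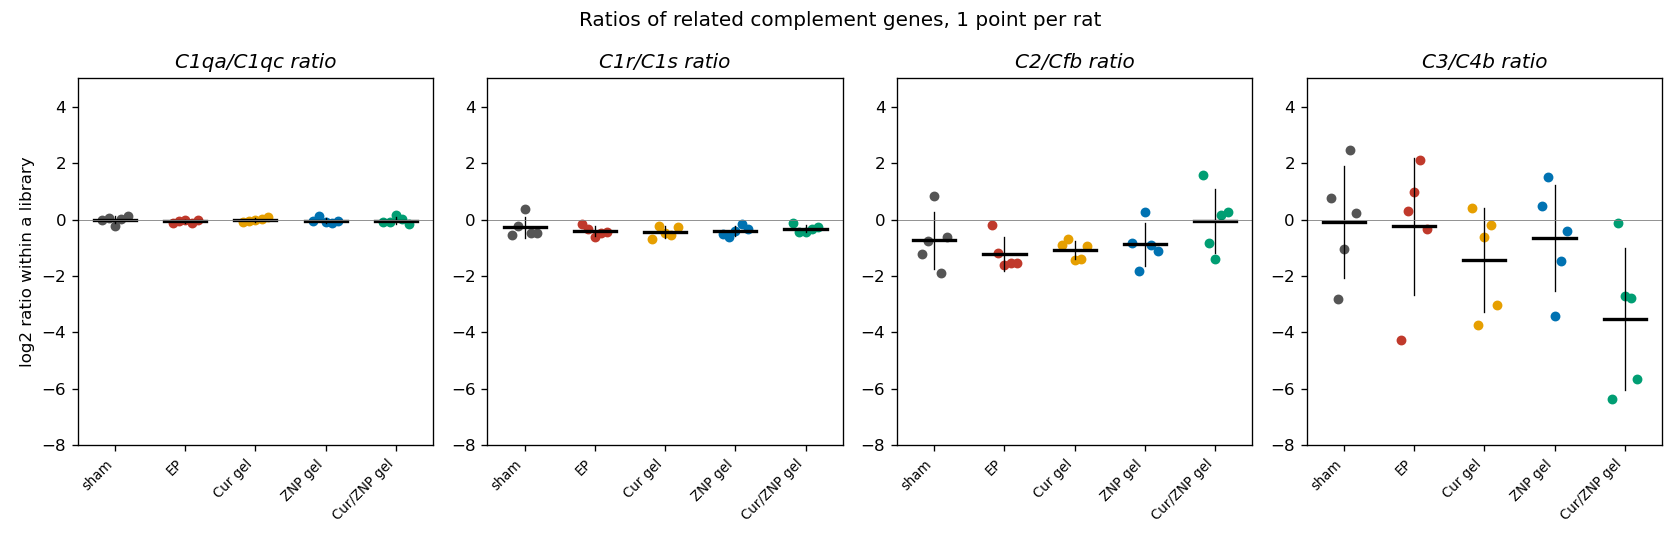
Log2 ratios of normalized counts within each library for C1qa/C1qc, C1r/C1s, C2/Cfb and C3/C4b, 1 point per rat, with the mean (bar) and ±1 SD (line) of each group of 5. C1qa/C1qc stays between 0.857 and 1.11 over all 25 libraries and C1r/C1s between 0.613 and 0.914 apart from Sham 3 at 1.29, whereas C3/C4b spans from 0.0121 to 5.47 before the log.

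Within groups some of the 10 genes varied together. Correlations were taken over 25 libraries after subtraction of each group's mean log2 value and are descriptions only, since the libraries share tissue composition. The C1q chains had r of 0.98 to 0.99 with each other. C1r had r = 0.90 with C4b and 0.86 with C1s, and C1s had 0.83 with C4b. C3 had r = 0.87 with Cfb, and C2 had 0.80 with Cfb and 0.76 with C3. The C1q chains had r of 0.71 to 0.75 with C3 and 0.73 to 0.76 with C2, as high as that of C2 with C3. C3 had r = 0.02 with C4b and 0.05 with C1r. Cfp had r of 0.81 to 0.83 with the C1q chains. C1s had r of 0.66 to 0.70 with the C1q chains and 0.45 with C3.

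**Figure D5:**
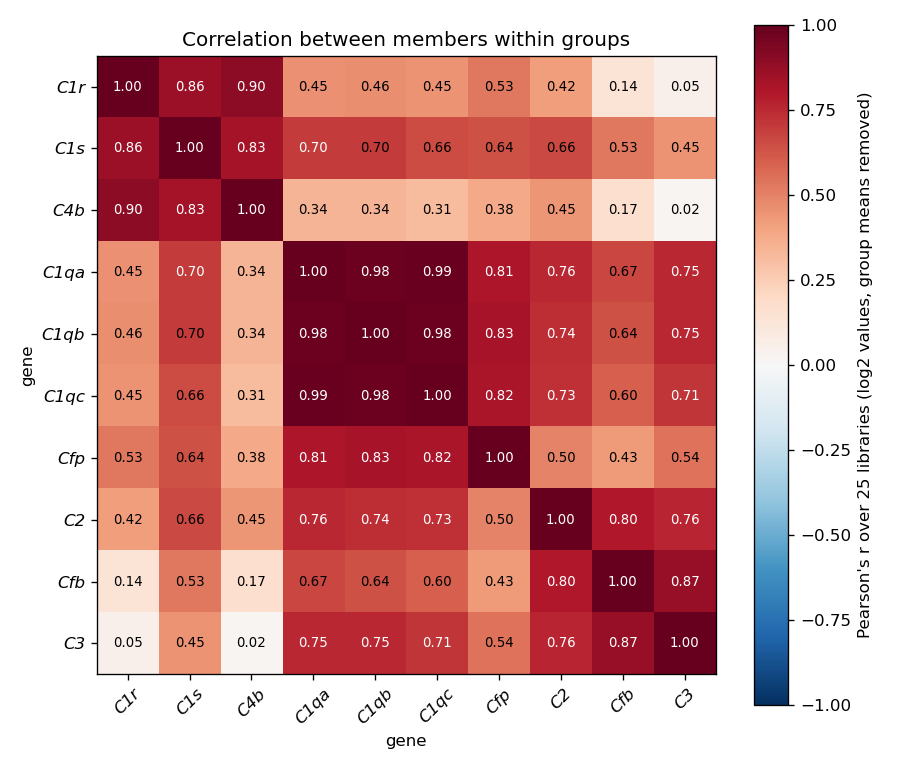
Pearson's r between each pair of the 10 genes over 25 libraries, from log2 values with group means removed, on a colour scale from -1 to 1. C1r, C1s and C4b lie at 0.83 to 0.90 with each other, the C1q chains at 0.98 to 0.99, and C2, Cfb and C3 at 0.76 to 0.87, while the C1q chains with C2 and C3 lie at 0.71 to 0.76.

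Genes outside the set with the most similar pattern were sought among 15151 genes by the same measure. Closest to the mean of the C1q chains were Ctss, a lysosomal protease of antigen-presenting cells (r = 0.963), Unc93b1, which carries Toll-like receptors to endosomes (0.950), and Slamf8 (0.950). Closest to C1r and C1s were Fas, a death receptor (0.876), Ttyh3 (0.876) and C1rl, a relative of C1r (0.862). Closest to C4b were LOC103689965, which overlaps it (0.837), C1rl (0.823) and Nuak1 (0.816). C2 was closest to Irf1, a transcription factor of the interferon response (0.889), Erap1, a peptidase of antigen processing (0.888), and Clec4a3 (0.888). C3 was closest to Noxo1, a subunit of an epithelial oxidase (0.960), Cftr, an epithelial chloride channel (0.950), and Elf3, an epithelial transcription factor (0.941). Cfb was also closest to Elf3 (0.941), then Plekhs1 (0.936) and Ptpn18 (0.933). Cfp was closest to Ms4a6e (0.966), Gpsm3 (0.964) and Ms4a6bl (0.952).

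For each marker list the log2 deviations from group means were averaged over its tested genes and compared with the members by the same measure. The macrophage mean (14 genes) had r of 0.88 to 0.91 with the C1q chains and 0.86 with C2. It had 0.75 with C3, 0.68 with Cfp and 0.64 with Cfb. The mast cell mean (8 genes) had 0.71 with C1r and 0.66 with C4b. The fibroblast mean (11 genes) had 0.56 with C1r, 0.16 with C1s and -0.53 with C3. The T cell mean (7 genes) had 0.80 with Cfp, 0.71 to 0.76 with the C1q chains and 0.74 with C3. The nasal gland mean (6 genes) had 0.62 to 0.65 with the C1q chains and 0.58 with C3. The endothelium mean (7 genes) had 0.59 with C4b. The gingival epithelium mean (12 genes) had -0.64 to -0.68 with the C1q chains. The salivary gland mean (4 genes) had 0.59 with Cfb. Of 9 hepatocyte genes found 2 passed the filter on low values, and the mean of these 2 had 0.72 with Cfb. The summed level of the 9 was 300.4 CPM at most.

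Other complement genes were followed for comparison. Of 40 listed genes of the lectin pathway, the terminal pathway, regulators and receptors, 38 were found and 31 tested. In EP 7 were higher than in sham and 1 was lower, with a median log2 fold change of 0.35 over the 31. The counts were 6 and 1 in Cur gel, 7 and 1 in ZNP gel and 12 and 2 in Cur/ZNP gel, beside 18.8% of all genes higher in EP and 18.9%, 16.7% and 20.2% in the gels in that order. In the first 3 comparisons the share of the 31 that was higher was near that background. The share that was lower was below that of all genes in every comparison. Of all genes 18.8% were lower in EP, and 19.1%, 15.4% and 19.5% with curcumin, zinc and both. A total of 0 passed with limma in any gel against EP (0, 0 and 2 at an unadjusted p under 0.05, beside 284, 481 and 2054 of all genes). The 4 genes with the smallest p in EP were C6, C7, Masp1 and C1qbp. C6 and C7, parts of the membrane pore, rose by 2.34 and 2.61 (SE 0.469 and 0.578, adjusted p = 0.000861 and 0.00174). Masp1, a lectin pathway protease related to C1r and C1s, was higher by 1.96 (SE 0.548, adjusted p = 0.00803). C1qbp, a mitochondrial protein that can bind C1q, was lower, with -0.57 (SE 0.165, adjusted p = 0.0106).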

How the data were processed

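Total RNA of gingiva was sequenced as stranded, ribosome-depleted libraries, as the labels state. The deposited signal values are read numbers for each Ensembl transcript that the authors divided by 1 size factor per library (the submitters' processing notes name Rnor_6.0 and DESeq2). All were whole multiples of 1 read within 0.01. The aligner and counter are not given in the sources used here. Transcripts (41078, of which 8186 were at 0 throughout, 396 had no symbol) were summed to 30547 genes, and 840 blank lines were dropped.

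The 16092 genes that reached 2 CPM in 1 library or more were fitted with limma 3.58.1 in R 4.3.3 (trend and robust) on log2(normalized count + 1), in 1 model of 25 libraries. A pseudocount of 1 understates changes of low genes. Tests were two-sided, with Benjamini-Hochberg adjustment and a threshold of 0.05. Ratios were compared by exact permutation tests, adjusted over 28. edgeR 4.0.16 and DESeq2 1.42.0 on the recovered reads, filters, pseudocounts, scalings, the highest transcript, 2 groups alone, a block and left-out libraries were alternatives. The procedure was tested on simulated data.

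The members and lists were chosen with earlier results of these data known. All 10 members are named, as are the 4 other complement genes with the smallest p in EP against sham and the 3 genes most like each member or subunit set. Promoters came from RefSeq (GRCr8). Tissue and cell type lists were of macrophage, neutrophil, fibroblast, mast cell, T cell, B and plasma cell, hepatocyte, adipocyte, endothelium, gingival epithelium, skeletal muscle, nasal gland, salivary gland and autonomic neuron.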

Additional observations from a re-analysis of the deposited data

Results flagged for a closer look

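The level of 2 members in Sham 3 stood far from the other sham libraries. C4b had 2125 normalized counts in Sham 3 against 7342 to 9518 in the other 4, a gap of 0.827 of the range of the group on the log2 scale. C1r had 5813 normalized counts in Sham 3 against 9046 to 10718, a gap of 0.723 on the log2 scale. Both exceed Dixon's 95% critical value for 5 samples on that scale, but on the counts themselves the gaps were 0.706 and 0.659 and did not. In all, 50 groups of 5 were examined, 2 exceeded it, and chance flags about 1 in 20. In Sham 3 the salivary gland genes summed to 28.8 CPM, the lowest of all libraries, and the autonomic neuron genes to 1995 CPM, the highest. The part of either in the low C4b and C1r values was not tested. Without Sham 3 C4b stayed higher than sham in all 4 groups and C1r in Cur/ZNP gel.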

How the results depend on the processing

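Over 21 alternatives (22 for C4b), no called member changed direction. C4b in the 3 gels and C1r in Cur/ZNP gel passed in every alternative, with adjusted p up to 0.0368 and 0.0212. C4b in EP lost its call in 1, C1s in Cur/ZNP gel in 2, C2 in ZNP gel in 3, Cfp in Cur gel in 6 and C2 in Cur gel in 10. With the 2 groups alone, 0 members passed in EP, 1 in Cur gel and 1 in ZNP gel, in place of 1, 3 and 2, while calls over all genes in EP went from 3024 higher and 3033 lower to 1745 and 1635 (in Cur gel from 3049 and 3070 to 1720 and 1643, in ZNP gel from 2686 and 2476 to 1080 and 882, in Cur/ZNP gel from 3248 and 3134 to 1947 and 1716). Without Sham 4, EP 3 and EP 4, 5 passed with zinc alone and 5 with both drugs, in place of 2 and 3, beside 2302 higher and 2449 lower of 16092 genes with zinc and 2848 and 3049 with both. With single libraries left out the count ranged from 1 to 3 in EP (2 without Sham 2, 3 without Sham 4), 1 to 3 in Cur gel (1 without Sham 1 or Cur gel 4), 1 to 7 in ZNP gel (1 without Sham 3 or ZNP gel 1, 4 without Sham 5 or ZNP gel 4, 7 without Sham 4, beside 2295 higher and 2452 lower over all genes) and 2 to 5 in Cur/ZNP gel (5 without Sham 4, beside 2839 and 2994). In comparisons with EP or between gels it stayed at 0. The cause of these changes was not tested. Replicate numbers did not pair the libraries: of 50 same-number pairs in different groups 17 had a correlation of deviations above 0.1 (median -0.00735), and 7 of 25 libraries correlated best with their own number. A replicate block left 1 member in EP, and 2, 2 and 3 with curcumin, zinc and both, as C2 in Cur gel had adjusted p = 0.0601. Taking C3 by its highest transcript moved its value to 3.08 in ZNP gel against sham and to -5.80, -5.24 and -6.08 in Cur/ZNP gel against EP and the Cur and ZNP gels, none of which passed. All 28 ratio differences kept their side of the threshold. With 50690789 reads or more per library, counting error was small, and the share of the spread between libraries that came from the tissue sampled was not tested.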

Other observations

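Further levels and calls of marker lists are given here against sham. Among all genes tested 18.8% passed as higher in EP, and 18.9%, 16.7% and 20.2% with curcumin, zinc and both. As lower, 18.8%, 19.1%, 15.4% and 19.5% passed in the same order. A count of 1 or 2 in lists this short therefore does not show that the markers of a tissue moved. No list was tested against these shares. Skeletal muscle genes summed to a median of 2901 CPM in sham, 17735 in EP, and 20931, 17041 and 29478 with curcumin, zinc and both, and 6, 0, 3 and 6 of 8 were higher than in sham in these groups. Adipocyte genes had a median sum of 131 CPM in sham and 506 in Cur/ZNP gel, where 7 of 8 were higher, against 2, 2 and 3 in the other treated or EP groups. Autonomic neuron genes summed to a median of 379.5 CPM in sham and of 2.76 to 3.28 in the other groups, and 7 of 8 were lower in each. B and plasma cell genes had medians of 485 CPM in sham and 76.9 in Cur/ZNP gel, where 5 of 7 were lower, and 1 was lower in Cur gel. Neutrophil genes (9 tested) had medians of 28.4 to 44.9 CPM, with 2 higher in EP, in the zinc gel and in the combined gel and 1 higher and 1 lower in Cur gel. Endothelial genes (7 tested) had medians of 468 to 708 CPM, with 1 higher in each group and 1 lower in EP, Cur gel and ZNP gel. Of 6 nasal gland genes 0 passed in any group. At an unadjusted p under 0.05 in limma there were 0, 1, 0 and 1 of them, beside 7598, 7649, 7038 and 7867 of 16092 genes. Of 4 salivary gland genes tested 1 was higher in Cur gel and 1 in ZNP gel, and of 2 hepatocyte genes tested 1 was higher in Cur gel. Of 12 gingival epithelium genes 1 was higher and 3 lower in EP, with 2 and 1, 3 and 0, and 3 and 2 for curcumin, zinc and both. Of 7 T cell genes 1 was higher in each group, and 1 was lower in Cur gel and 2 in Cur/ZNP gel. Mast cell genes were higher in 3, 6, 5 and 5 of 8.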
